A study of Mus musculus with 28 samples.

Results

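The effect of joint destabilization on microRNAs (miRNAs) 1 week after surgery was compared between articular cartilage and the subchondral bone beneath it. The quantity compared was the cartilage effect (DMM minus SHAM) minus the bone effect (DMM minus SHAM), a difference of differences on the log2 scale. It was estimated for the 359 miRNA rows, of 569 in the table, that had a value on all 28 arrays of the series. The 1-week samples made up 14 of these 28 arrays. DMM is the surgical destabilization of the medial meniscus, a mouse model of post-traumatic osteoarthritis in which the ligament that anchors the meniscus to the tibia is cut. In SHAM mice the ligament was exposed and left intact. The 4 groups were cartilage DMM and cartilage SHAM, with 3 arrays each of RNA pooled from 3 mice, and bone DMM and bone SHAM, with 4 arrays each of single mice. All were wild-type C57BL6 males that had both knees operated on at 10 to 12 weeks of age, and their tissue was laser-microdissected from the medial tibial plateau. No group was unoperated, so the joint opening is shared by both operations. The other 14 arrays came from mice killed at 6 weeks.

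A miRNA is a short RNA that guides a silencing complex to messenger RNAs, mainly by pairing of its seed, bases 2 to 8 from the 5′ end. It is cut from a hairpin whose 5p and 3p arms can both be kept as mature miRNAs. In cartilage, miR-140 is the best studied miRNA, and mice that lack it develop osteoarthritis-like changes. In bone, miRNAs of marrow and blood cells are measured together with those of osteoblasts and osteocytes, so fewer cells of a type and less RNA per cell cannot be told apart in these samples.

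The tissue labels were checked against marker miRNAs, because a tissue field of the cartilage samples names subchondral bone while the source field names cartilage. miR-140-3p had a log2 signal of 13.2 to 13.7 on the 6 cartilage arrays, against 9.04 to 9.98 on the 8 bone arrays. The red-cell miRNA miR-451a lay at 6.84 to 8.00 in cartilage, against 10.9 to 13.4 in bone, and the myeloid miR-223-3p at 6.79 to 7.92 in cartilage, against 12.3 to 14.1 in bone. The endothelial miR-126a-3p lay at 5.36 to 7.24 in cartilage, against 9.62 to 11.02 in bone. The markers went with the source field, which was followed. No source used here says if 1 normalization covered both tissues, and only changes within a tissue enter the comparison.

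The bone arrays varied more than the cartilage arrays. The median within-group SD over the 359 rows was 0.15 on the log2 scale in cartilage, where each array averages 3 mice, and 0.31 in bone. The 4 bone SHAM arrays stood far apart from each other. On the first component of the within-group variation among bone arrays, which held 62.3% of it, bone SHAM replicates 1 to 4 scored 9.91, -6.22, -3.64 and -10.1, while bone DMM replicates 1 to 4 scored -7.54, -0.16, -0.34 and -0.71. Bone SHAM replicate 1 had a median correlation of 0.884 with its group, the lowest of all 1-week arrays. The cartilage arrays were scored on the same component, each tissue centred on its own mean, and cartilage DMM replicates 1 to 3 scored 2.65, 3.25 and 4.15, against -1.53, -0.87 and -0.97 in cartilage SHAM. The cartilage groups thus lay apart on a component along which bone arrays of 1 group also varied, and more widely. Its sign was set so that miR-6931-5p loads positively. Over the 359 rows the loadings correlated at r = 0.50 with the cartilage effect, 0.13 with the bone effect and 0.45 with the difference, a description over rows that share arrays. The part of this component in the results was not tested beyond a fit with the score as a covariate. The score was built from the within-group variation of these same rows, so that fit lowers the residual spread of rows that load on it. Passing in that fit is therefore no separate support. Leaving out bone SHAM replicate 1 or 4 moved the difference by over 1.5 times for 25 of the 52 miRNAs followed, and for 0 of the 16 with the most clearly positive or negative differences. The 16 were picked by small p, and a ratio moves more easily for differences near 0, so the contrast of these counts follows partly from the choice. Other arrays mattered too. Without bone DMM replicate 1 let-7c-5p went from -0.57 to -0.37 and let-7b-5p from -0.62 to -0.42. In the main fit each p-value rests on 1 spread per miRNA, shared by all 8 groups of both weeks. That spread mixes pools of 3 mice in cartilage with single mice in bone. It can thus be too wide for cartilage and too narrow for bone.

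The sequences of the miRNAs with the most clearly positive differences are shown first, since several share letters outside the seed. Sequences are RefSeq mature sequences on GRCm38.p6, found for all but 62 of the 359 rows, with the seed in capitals.
miR-6931-5p: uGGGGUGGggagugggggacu
miR-195a-3p: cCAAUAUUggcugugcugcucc
miR-6918-5p: uGCUGAGGacgggauuagguucu
miR-6904-5p: uCCUGGGGuuagaguugagugg
miR-1187: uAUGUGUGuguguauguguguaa
miR-3082-5p: gACAGAGUgugugugucugugu
miR-574-5p: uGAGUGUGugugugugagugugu
The eighth miRNA of this group, miR-466f-5p, is given by name. miR-6931-5p is encoded at chr11:102999896-102999916 on the minus strand, within the spans of Dcakd and Gm34620. miR-574-5p lies at chr5:64970328-64970350 on the plus strand, within the spans of Fam114a1 and Tlr6, and its hairpin also gives miR-574-3p, shown next. No 2 of the 7 sequences share a seed.

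The miRNAs with the most clearly negative differences are shown with the same use of capitals, because most of them are rich in alternating C and A.
miR-574-3p: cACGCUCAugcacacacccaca
miR-466i-3p: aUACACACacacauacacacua
miR-467f: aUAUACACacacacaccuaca
miR-466q: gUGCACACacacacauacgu
let-7b-5p: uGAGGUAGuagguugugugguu
let-7c-5p: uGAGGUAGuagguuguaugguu
miR-466f-3p and miR-669p-3p belong to this group and are given by name. let-7b-5p and let-7c-5p share the seed GAGGUAG, which 10 of the matched miRNAs carry.

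The DMM effect differed between the tissues for 1 miRNA, miR-6931-5p, at an adjusted p of 0.05 (limma, Benjamini-Hochberg over all 359 rows). That is 0.279% of the rows tested. A further 58 rows had an unadjusted p under 0.05, so 59 in all (16.4%), of which 47 had a positive difference, that is a DMM effect higher in cartilage than in bone, and 12 a negative one. The second smallest adjusted p was 0.156. The median standard error of a difference was 0.31 on the log2 scale, which limits what 3 against 3 and 4 against 4 arrays can show. Differences reached 1 or more in 20 rows and -1 or less in 0 rows.

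miR-6931-5p rose in cartilage after DMM and did not pass the test in bone. Its log2 signal was 10.92, 11.45 and 11.03 on the cartilage DMM arrays, against 8.42, 8.69 and 8.52 on the cartilage SHAM arrays. On the bone DMM arrays it was 8.22, 7.93, 8.31 and 8.24, against 8.36, 7.76, 8.20 and 7.67 on the bone SHAM arrays. Every cartilage DMM array lay above all 11 other 1-week arrays, and the bone groups overlapped. The cartilage effect was 2.59 (SE 0.21), a 6.03-fold rise with a limma adjusted p of 3.20e-09, and the bone effect was 0.18 (SE 0.18, adjusted p = 0.992). The difference was 2.41 (SE 0.28, 95% interval 1.83 to 3.00), so that the fold change in cartilage was 5.33 times that in bone (adjusted p = 3.28e-06). It stayed past the threshold in all 26 alternatives run, with a difference of 1.99 to 2.52.

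**Figure D1:**
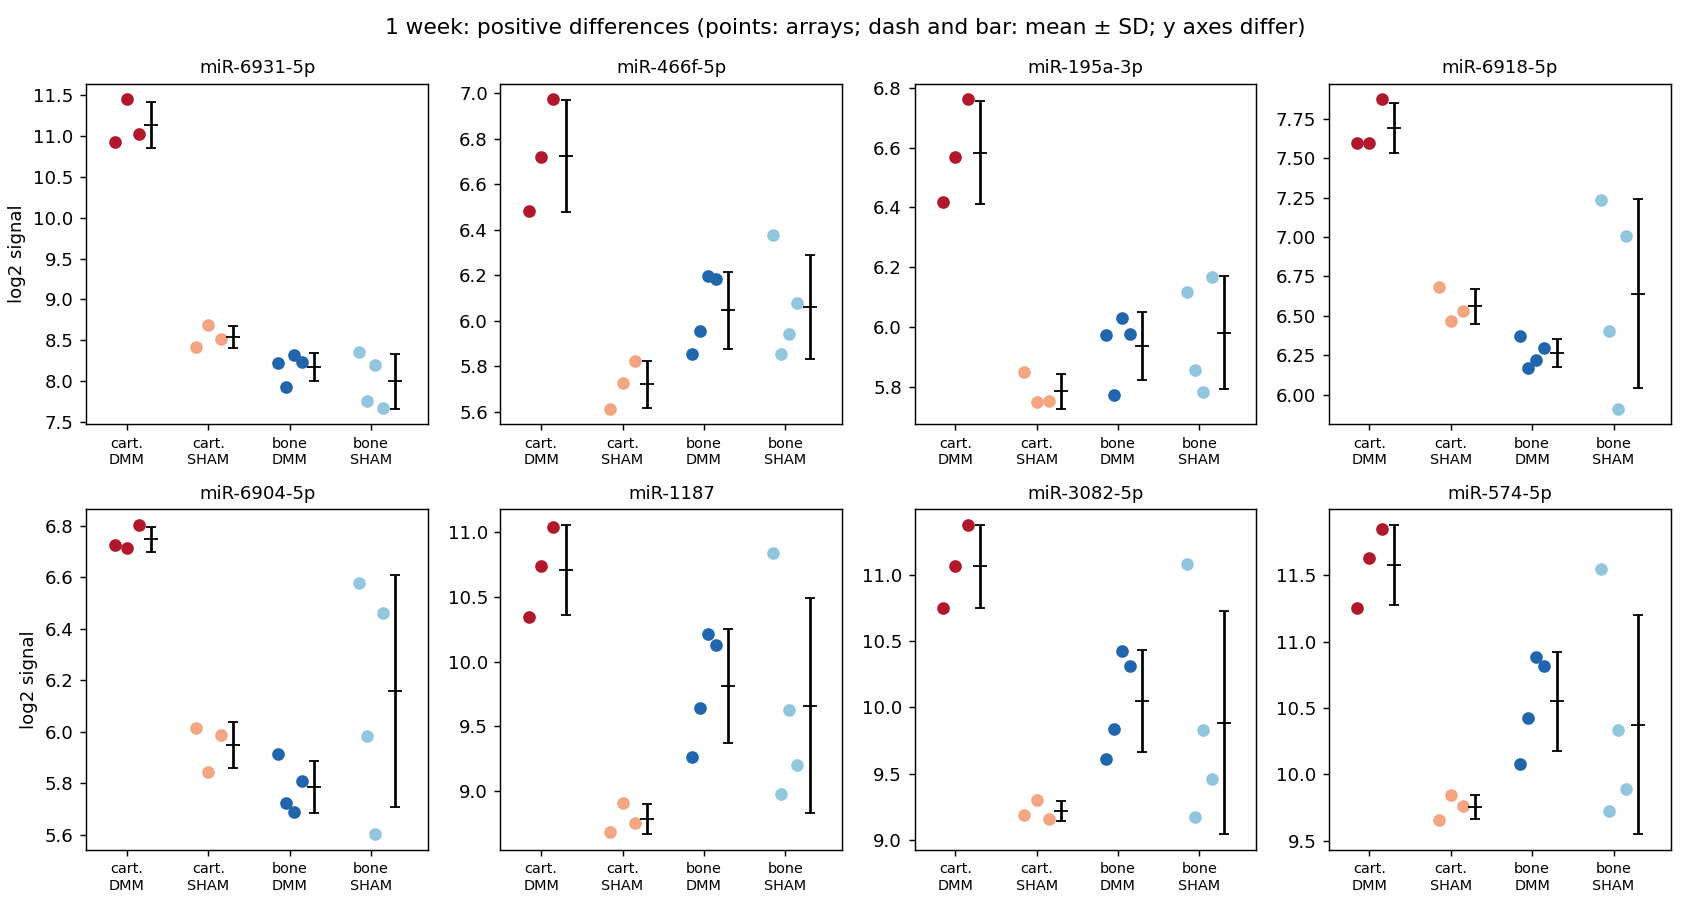
The log2 signal (y axes, which differ) of the 8 miRNAs with the most clearly positive difference on each 1-week array, with cartilage DMM, cartilage SHAM, bone DMM and bone SHAM from left to right; points are arrays, and the dash and bar give the mean ± SD (3 arrays per cartilage group, 4 per bone group). In every panel the cartilage DMM arrays lie above the cartilage SHAM arrays while the bone groups overlap. Such a separation in cartilage occurs in 29% of all 359 rows. Only miR-6931-5p passes the test of the difference.

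The next 7 positive differences did not pass, with adjusted p-values of 0.156 to 0.176 (limma). With the component score as a covariate 4 of them did, miR-1187 and miR-574-5p (adjusted p = 0.00411 each), miR-3082-5p (0.00595) and miR-466f-5p (0.0369). Their differences were smaller in that fit, at 1.35, 1.23, 1.27 and 0.85 in that order. The score comes from these same rows, so the lower p-values there are no separate support. With array weights of either kind all 7 passed. miR-1187 had 10.34, 10.74 and 11.04 in cartilage DMM, against 8.69, 8.91 and 8.76 in cartilage SHAM. The bone DMM arrays had 9.27, 9.64, 10.21 and 10.13, against 10.83, 8.98, 9.63 and 9.21 in bone SHAM. The cartilage groups were more than 1 log2 unit apart, while bone SHAM replicate 1 was higher than every bone DMM array. Its cartilage effect was 1.92 (SE 0.43, a 3.78-fold rise, adjusted p = 0.0155), its bone effect 0.15 (SE 0.37), and its difference 1.77 (SE 0.56). Without bone SHAM replicate 1 the difference was 1.38.

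miR-574-5p had 11.25, 11.63 and 11.85 in cartilage DMM, against 9.66, 9.85 and 9.76 in cartilage SHAM. Bone DMM signals were 10.08, 10.42, 10.88 and 10.82, against 11.55, 9.72, 10.33 and 9.89 in bone SHAM. Its pattern was that of miR-1187, with separate cartilage groups and 1 high bone SHAM array. The difference was 1.65 (SE 0.55), and 1.25 without bone SHAM replicate 1. miR-3082-5p differed by 1.69 (SE 0.56), with a 3.60-fold rise in cartilage, and by 1.29 without that array.

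For miR-6918-5p and miR-6904-5p, both encoded within spans of protein-coding genes (Nipsnap1 and Parp1), the bone effect ran against the cartilage effect. miR-6918-5p had 7.60, 7.60 and 7.87 in cartilage DMM, against 6.68, 6.47 and 6.53 in cartilage SHAM. Its bone DMM arrays had 6.37, 6.17, 6.22 and 6.30, against 7.24, 6.40, 5.91 and 7.01 in bone SHAM. Bone SHAM replicates 1, 2 and 4 were above every bone DMM array, replicate 2 by a narrow margin, and replicate 3 was below them all. Its cartilage effect was 1.13 (a 2.19-fold rise, adjusted p = 0.0473), its bone effect -0.38 (SE 0.30), and the 95% interval of the difference 0.56 to 2.45, with a fold change in cartilage 2.84 times that in bone. Without bone SHAM replicates 1 and 4 the difference was 1.02 and the bone effect 0.11. miR-6904-5p differed by 1.17 (SE 0.36), with a cartilage effect of 0.80 (adjusted p = 0.0698) and a bone effect of -0.37. Without bone SHAM replicates 1 and 4 its difference was 0.81, near its cartilage effect.

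The 2 remaining miRNAs had bone effects near 0. miR-195a-3p comes from the hairpin whose 5p arm belongs to the miR-15/16 family. It had 6.42, 6.57 and 6.76 in cartilage DMM, against 5.85, 5.75 and 5.75 in cartilage SHAM. On bone DMM arrays it had 5.97, 5.77, 6.03 and 5.97, against 6.12, 5.86, 5.78 and 6.17 in bone SHAM. The cartilage groups did not overlap and the bone groups did. Its difference was 0.84 (SE 0.25), made of a cartilage effect of 0.80 (a 1.74-fold rise, adjusted p = 0.0162) and a bone effect of -0.04. Its 5p arm, miR-195a-5p, had a difference of -0.35. miR-466f-5p differed by 1.02 (SE 0.30), with a 2.01-fold rise in cartilage (adjusted p = 0.0155) and a bone effect of -0.01.

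None of the negative differences passed the test. They were smaller than the positive ones, between -0.57 and -0.72 for the 8 followed here, with limma adjusted p-values of 0.176 to 0.284. With default array weights miR-466i-3p, miR-467f, miR-466f-3p, miR-574-3p, miR-669p-3p and miR-466q passed (limma adjusted p = 0.00607 to 0.0167). The weighted fit left let-7b-5p and let-7c-5p above the threshold. With gene-by-gene weights miR-466i-3p alone passed (adjusted p = 0.0367), and with the component score as a covariate none of the 8 did. miR-574-3p, from the hairpin of miR-574-5p, had 6.67, 7.05 and 6.78 in cartilage DMM, against 7.34, 7.07 and 7.11 in cartilage SHAM. Bone DMM arrays showed 6.27, 5.80, 6.05 and 6.26, against 5.67, 5.79, 6.01 and 5.82 in bone SHAM. Its cartilage DMM arrays lay below the cartilage SHAM arrays by a narrow gap, and the bone groups overlapped. The cartilage effect of -0.34 and the bone effect of 0.27 gave a difference of -0.61 (SE 0.21).

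miR-669p-3p had 6.32, 6.68 and 6.53 in cartilage DMM, against 7.20, 7.13 and 7.08 in cartilage SHAM. In bone DMM it had 5.83, 5.93, 6.14 and 6.25, against 5.91, 5.93, 6.23 and 5.70 in bone SHAM. Cartilage DMM was lower on every array, and bone showed no separation. The difference of -0.72 (SE 0.32) was the most negative of all 359 rows. let-7b-5p, of a family that represses growth-related messenger RNAs such as Hmga2, had 13.28, 13.29 and 13.07 in cartilage DMM, against 13.56, 13.69 and 13.76 in cartilage SHAM. It had 12.48, 11.89, 11.44 and 11.72 in bone DMM, against 11.69, 12.06, 11.34 and 11.81 in bone SHAM. The cartilage groups were separate and the bone groups interleaved, with a difference of -0.62 (SE 0.26).

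**Figure D2:**
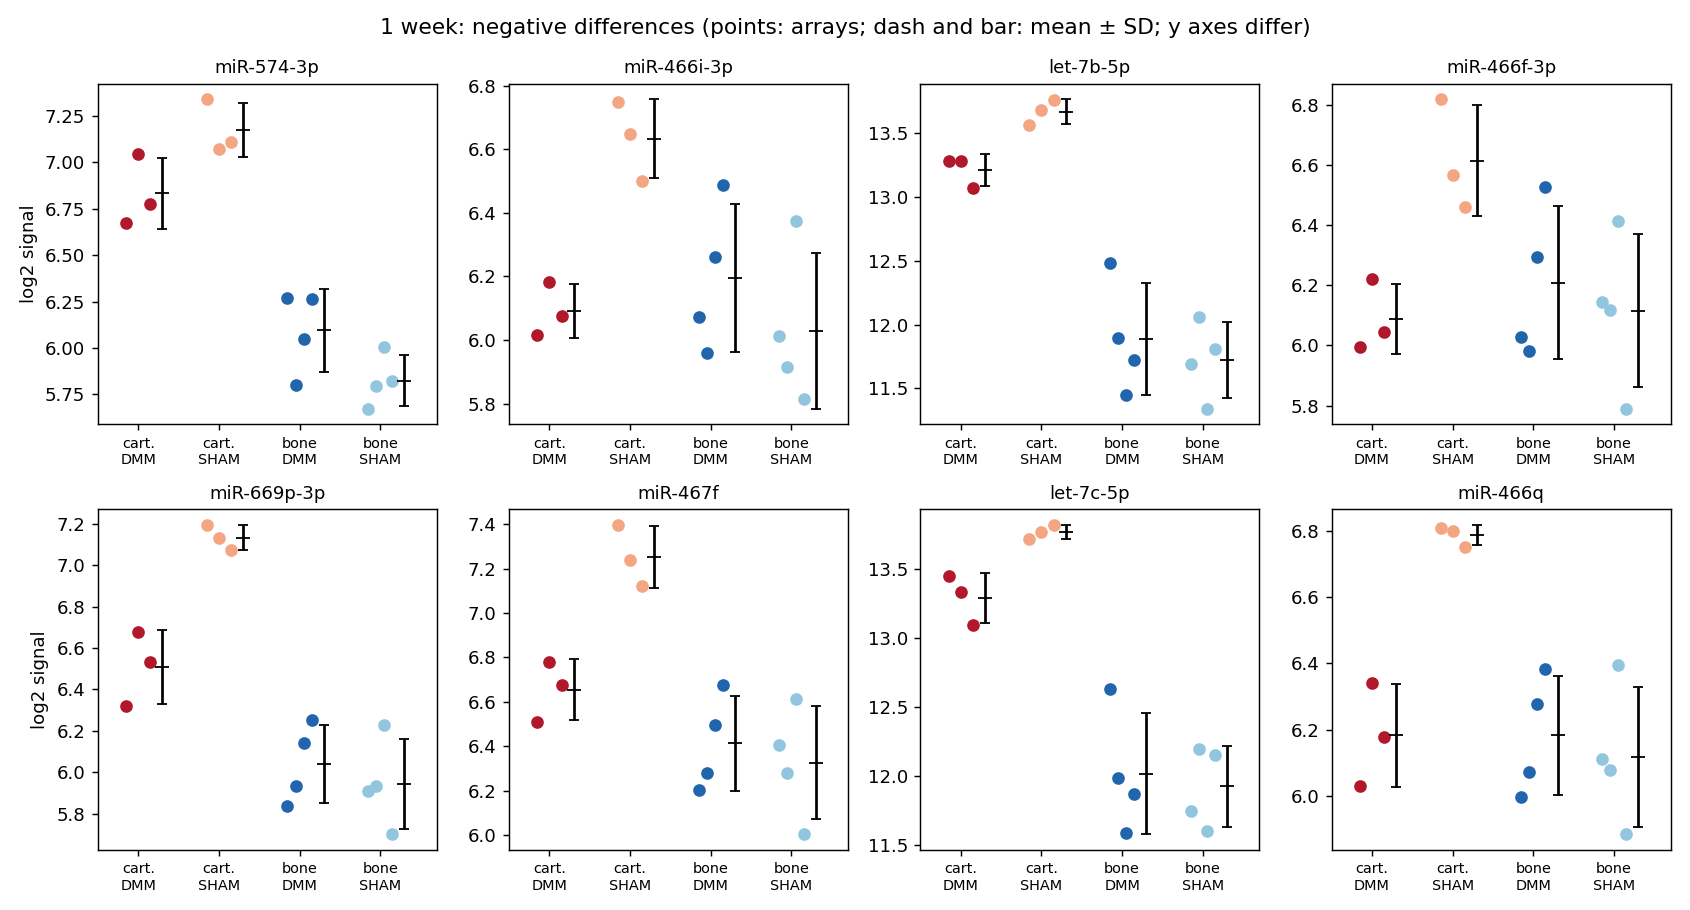
The log2 signal (y axes, which differ) of the 8 miRNAs with the most clearly negative difference on each 1-week array, with cartilage DMM, cartilage SHAM, bone DMM and bone SHAM from left to right; points are arrays, and the dash and bar give the mean ± SD (3 arrays per cartilage group, 4 per bone group). In every panel cartilage DMM lies below cartilage SHAM and the bone groups overlap. Such a separation in cartilage occurs in 18.9% of all 359 rows. None of the 8 passes the test of the difference.

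The effects within each tissue were compared next. In cartilage 27 of 359 miRNAs passed the test, all higher in DMM (7.52%), and 78 (21.7%) had an unadjusted p under 0.05 by limma. In bone 0 passed (0%), and 3 (0.836%) had an unadjusted p under 0.05. Leaving out any of cartilage SHAM replicates 1, 2 and 3 or cartilage DMM replicates 2 and 3 reduced the cartilage count to 1. The median size of an effect, whatever its sign, was 0.26 in cartilage and 0.13 in bone. Every cartilage DMM array lay above every cartilage SHAM array in 104 rows (29%) and below in 68 (18.9%). In bone the groups separated upward in 3 rows (0.836%) and downward in 1 (0.279%), with 4 arrays against 4, where separation is rarer than with 3 against 3. Across the 359 rows the cartilage and bone effects correlated at r = 0.21, a description over rows that share arrays within each tissue.

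Of the 27 miRNAs that rose in cartilage, all had a positive difference and an unadjusted p under 0.05 for it, and 1 had an adjusted p under 0.05. The cartilage arrays enter both quantities. The bone effects of these 27 ran from -0.38 to 0.21 with a median of 0.02, and 16 were positive. Their median cartilage effect was 0.99 and their median difference 0.95, with a range of 0.55 to 2.41. In bone they were thus spread around 0. All 27 loaded positively on the bone component described above, as did 195 of all 359 rows.

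**Figure D3:**
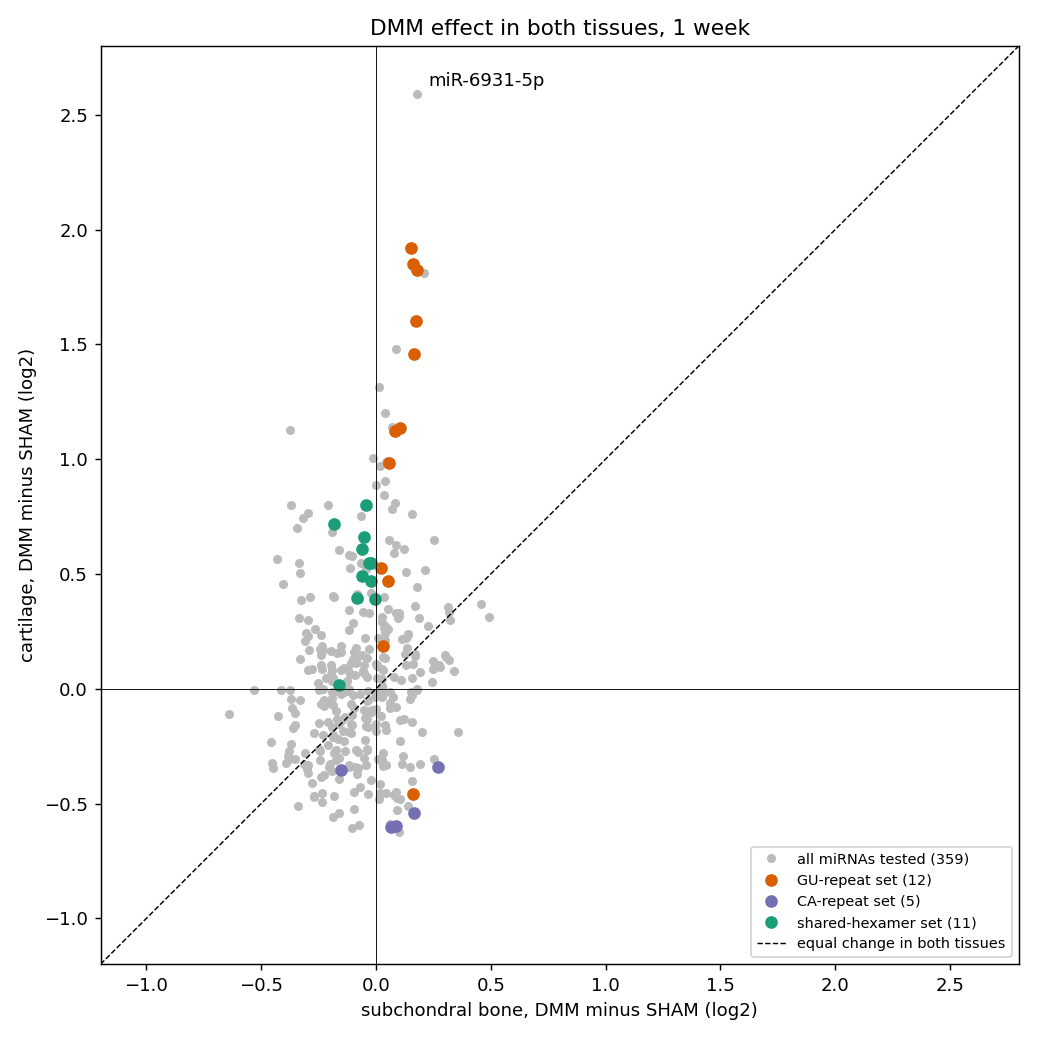
The DMM minus SHAM effect at 1 week in cartilage (y axis, log2) against that in subchondral bone (x axis, log2) for the 359 miRNAs tested, with the dashed line marking equal effects and colours marking 3 sets that share a 6-base stretch. The GU-repeat set (12) reaches 1.92 in cartilage at bone effects between 0.02 and 0.18, and miR-6931-5p stands highest at 2.59 in cartilage and 0.18 in bone.

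Scaling shifted the centre of the differences. The median of all 359 differences was 0.10 as deposited, against -0.08 with quantile-normalized values and -0.09 with every array centred at its 75th percentile. Rows with a positive difference numbered 210, 155 and 143 under these 3 scalings. Small list medians are therefore read against the median of all rows.

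The Sfmbt2 cluster is a rodent-specific series of hairpins in an intron of the gene Sfmbt2. Its miRNAs and their relatives elsewhere in the genome split mostly by hairpin arm, where their names give one. Among 34 measured members 25 were tested, of which 16 had positive and 9 negative differences, with a median of 0.87 against 0.10 over all rows. None passed the test of the difference, and 12 were among the 27 that rose in cartilage (7.52% of all 359 rows). All 13 5p arms were positive (median 0.94, 0.51 to 1.60), whereas 1 of 7 3p arms was, miR-468-3p at 1.39. The 3p median was -0.62, and both directions were the same under the 3 scalings. The 5 members without an arm in their name had 2 positive and 3 negative differences. In bone the medians were 0.04 for 5p and 0.09 for 3p arms. The median difference of the 25 was 0.72 without bone SHAM replicate 1 and 0.62 without bone SHAM replicates 1 and 4. With the component score as a covariate it was 0.66.

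Among them miR-466i-5p had the largest difference, 1.60 (SE 0.57), with a cartilage effect of 1.81 (adjusted p = 0.0162). Its loading on the bone component was 0.10, against a median of 0.0058 over all rows. Its 3p arm, miR-466i-3p, differed by -0.71 (SE 0.28). miR-466f-5p and miR-466f-3p differed by 1.02 and -0.62, miR-466h-5p and miR-466h-3p by 0.94 and -0.65, and miR-669f-5p and miR-669f-3p by 0.81 and -0.43. These 4 hairpins, the ones of the group with both arms tested, thus had a positive 5p and a negative 3p arm. Over all 25 hairpins with both arms tested, 8 had that arrangement and 4 the opposite. Members of the group are close copies, and binding of one member's RNA to another's probe was not tested. The group was chosen with results of these data known, so these counts are a description.

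Several of the miRNAs with large differences shared stretches of letters, which were not limited to the seed. In miR-1187 such a stretch also lies within the seed, AUGUGUG. miR-6931-5p, miR-6918-5p and miR-6904-5p carry none of the stretches described here. UGUGUG occurs in 12 of the matched sequences (4.04%) and in 28 of all 1679 mature mouse sequences (1.67%). It was chosen after the values had been seen and is described without a test. The 5 members with the largest differences among those not printed above are shown with each run of it in capitals.
miR-669n: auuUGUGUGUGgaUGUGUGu
miR-32-3p: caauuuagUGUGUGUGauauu
miR-672-5p: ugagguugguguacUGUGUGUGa
miR-6348: ucagccuuuauaaggUGUGUGu
miR-466j: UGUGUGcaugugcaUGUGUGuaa
Their differences were 1.43, 1.29, 1.04, 1.03 and 0.93 in that order. The other members are miR-1187, miR-3082-5p, miR-574-5p and let-7b-5p, shown above, and miR-206-3p (0.50), miR-294-3p (0.42) and let-7k (0.16). Of the 12, 11 had a positive difference and let-7b-5p a negative one, with a median of 1.04, against 0.05 over the 285 sequences without it.

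The median log2 signal of this GU-repeat set was 7.52, 7.86 and 8.39 on the cartilage DMM arrays, against 6.64, 6.68 and 6.58 on the cartilage SHAM arrays. It was 7.28, 7.75, 8.14 and 8.01 on the bone DMM arrays, against 8.64, 7.06, 7.50 and 7.43 on the bone SHAM arrays. The cartilage groups were separate, bone SHAM replicate 1 was the highest of all 14 arrays, and the other 3 bone SHAM arrays overlapped with bone DMM. The median difference of the set was 0.75 without bone SHAM replicate 1, 0.66 without bone SHAM replicates 1 and 4, and 0.70 with the component score as a covariate. Of the 12 members 11 loaded positively on the bone component, with a median loading of 0.081, against 0.0058 over all rows, and the cartilage DMM arrays scored above the cartilage SHAM arrays on it. Its members share sequence, so their number is not a number of independent results.

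CACACA, the reverse complement of UGUGUG, occurs in 5 matched sequences (1.68%; 0.715% of all mature sequences). These were miR-574-3p, miR-466i-3p, miR-467f, miR-466q and miR-342-3p, a miRNA of lymphoid cells. All 5 had negative differences, with a median of -0.67, from -0.20 for miR-342-3p to -0.71 for miR-466i-3p. All but miR-342-3p had already been picked above for their clearly negative differences, so their shared sign follows from that choice. UGUGUG was chosen after the values had been seen, and its reverse complement is likewise described without a test. Of all 359 rows 149 had a negative difference, and the median over matched sequences without CACACA was 0.08. Set medians were 6.51, 6.78 and 6.67 in cartilage DMM, against 7.27, 7.07 and 7.11 in cartilage SHAM. In bone DMM they were 6.20, 6.07, 6.28 and 6.49, against 6.11, 6.08, 6.39 and 5.88 in bone SHAM. The cartilage groups lay apart, in the direction opposite to the GU-repeat set, and the bone groups overlapped.

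UGUGCU, another shared stretch, occurs in 11 matched sequences (3.7%; 1.49% of all mature sequences) and is shown in capitals in 8 of them.
miR-6546-5p: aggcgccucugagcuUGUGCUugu
miR-16-1-3p: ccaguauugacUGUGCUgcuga
miR-7030-5p: uggggagguggcUGUGCUaguc
miR-499-3p: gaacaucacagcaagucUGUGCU
miR-700-5p: uaaggcuccuuccUGUGCUugc
let-7j: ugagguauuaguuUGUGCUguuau
miR-15a-3p: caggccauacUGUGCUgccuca
miR-16-2-3p: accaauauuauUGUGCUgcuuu
Their differences were 0.90, 0.71, 0.67, 0.58, 0.55, 0.57, 0.49 and 0.39 in that order. The others were miR-195a-3p (0.84), miR-7034-5p (0.48) and let-7i-5p (0.18), which turned to -0.15 with quantile normalization and -0.0053 with centring at the 75th percentile. The median of the 11 was 0.57, against 0.05 over the matched sequences without the stretch. Of the 11, 7 were among the 27 that rose in cartilage, which are 7.52% of all 359 rows. The stretch was chosen after the values had been seen, so that count follows partly from the choice. It covers miRNAs from different hairpins and with different seeds. Of these, miR-195a-3p, miR-16-1-3p, miR-16-2-3p and miR-15a-3p are 3p arms of miR-15/16 family hairpins, with similar letters around the stretch. The number of members is therefore not a number of independent results, and binding of one member's RNA to another's probe was not tested.

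Set medians of the UGUGCU miRNAs were 5.84, 5.90 and 6.01 in cartilage DMM, against 5.44, 5.41 and 5.35 in cartilage SHAM. In bone DMM they were 5.56, 5.50, 5.62 and 5.55, against 5.67, 5.53, 5.37 and 5.79 in bone SHAM. All but let-7i-5p lay at low log2 signals, with a mean over the 14 arrays of at most 6.06, where 25% of all rows lay below 6.02. Over the matched rows the difference correlated at r = 0.29 with the share of G, -0.29 with C, -0.27 with A and 0.16 with U, a description over rows that share arrays.

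**Figure D4:**
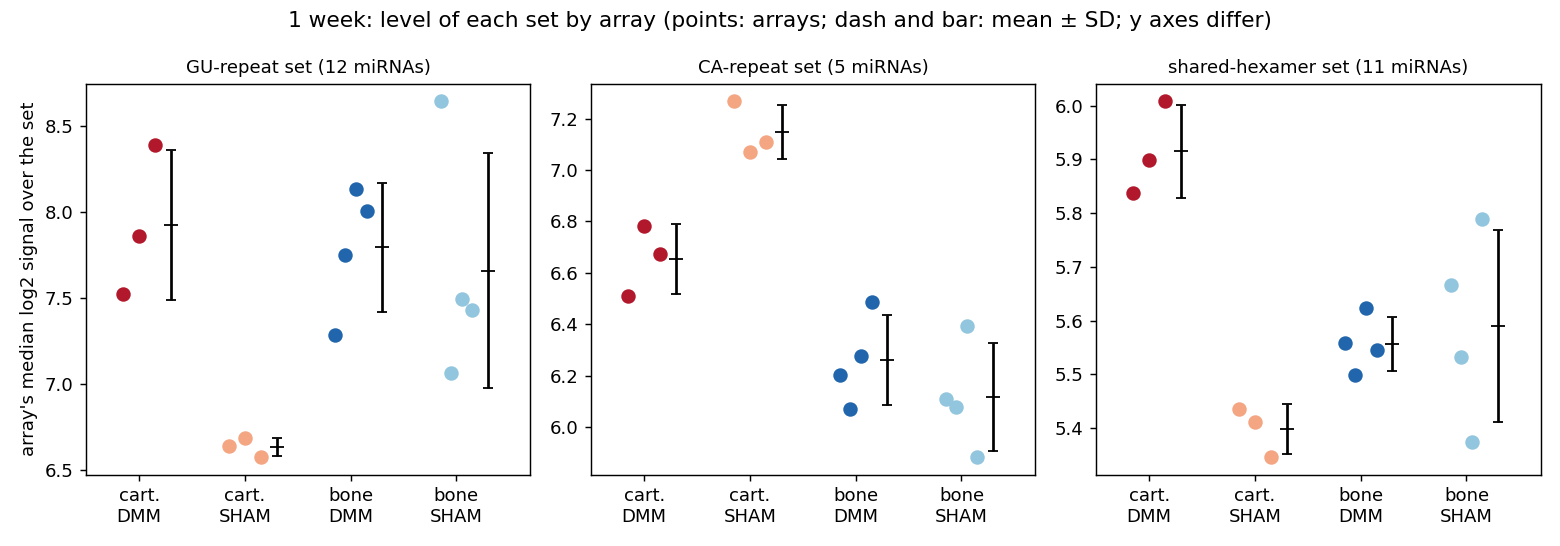
The median log2 signal over each of the 3 sets sharing a 6-base stretch (y axes, which differ) on every 1-week array, with cartilage DMM, cartilage SHAM, bone DMM and bone SHAM from left to right; points are arrays, and the dash and bar give the mean ± SD (3 arrays per cartilage group, 4 per bone group). Cartilage DMM and SHAM separate in all 3 sets, upward for the GU-repeat and shared-hexamer (UGUGCU) sets and downward for the CA-repeat set. The bone groups overlap. Among single rows, every cartilage DMM array lies above every cartilage SHAM array in 29% of all 359 and below in 18.9%. The sets were chosen after the values had been seen.

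None of the cartilage miRNAs passed the test of the difference. For the 3 tested members of the cartilage list limma gave adjusted p-values of 0.982, 0.982 and 0.582. miR-140-5p differed by 0.11, miR-140-3p, its partner arm, by -0.02, and miR-455-3p by -0.50. miR-455-3p, encoded in the collagen gene Col27a1, had 8.18, 8.49 and 8.22 in cartilage DMM, against 8.59, 8.92 and 8.74 in cartilage SHAM. It had 6.36, 5.45, 5.96 and 5.87 in bone DMM, against 5.21, 6.27, 6.03 and 5.95 in bone SHAM. The cartilage DMM arrays lay below the cartilage SHAM arrays, but the 95% interval of the difference, -1.23 to 0.23, includes 0, and without bone SHAM replicate 1 the difference was -0.28. For miR-140-5p the interval was -0.82 to 1.03, so a difference of that size in either direction could not be told from none.

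Of 5 inflammation-induced miRNAs tested, 0 passed. miR-21a-5p, raised in many inflamed or fibrotic tissues, had 10.37, 8.94 and 9.14 in cartilage DMM, against 8.86, 8.62 and 8.58 in cartilage SHAM. In bone DMM it had 11.34, 10.76, 10.40 and 10.82, against 10.33, 10.90, 10.89 and 12.04 in bone SHAM. Its difference of 1.01 (SE 0.50, adjusted p = 0.304) was 0.56 without cartilage DMM replicate 1, the highest cartilage array. The NF-κB-induced miR-146a-5p, miR-146b-5p and miR-155-5p had differences of 0.02, 0.09 and 0.34, of which those of miR-146a-5p and miR-146b-5p turned negative under both other scalings. miR-221-3p and miR-222-3p, which share the seed GCUACAU and are linked to dedifferentiation, had 0.55 and 0.57 (adjusted p = 0.568 and 0.334). Without bone SHAM replicate 4 the miR-221-3p difference was 0.23, and without replicate 1 it was 0.89. With the component score as a covariate both passed, at 0.81 for miR-221-3p and 0.76 for miR-222-3p (adjusted p = 0.0369 and 0.00694). That score comes from these same rows, so these p-values are no separate support. miR-222-3p also passed with gene-by-gene array weights (adjusted p = 0.0280). Both passed with default array weights.

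None of the tested markers of other cell types passed the test of the difference. Both tested red-cell miRNAs, miR-451a (0.23, SE 0.66) and miR-486a-5p (-0.16), did not pass. The leukocyte miRNAs miR-142a-3p, miR-223-3p and miR-342-3p had differences of 0.53, 0.53 and -0.20. miR-142a-3p had 5.54, 5.56 and 5.27 in cartilage DMM, against 5.70, 5.74 and 5.26 in cartilage SHAM. In bone DMM it had 9.17, 9.39, 9.35 and 9.48, against 8.82, 9.58, 10.06 and 11.49 in bone SHAM. Its positive difference thus came with a bone effect of -0.64 and 1 high bone SHAM array, replicate 4, without which the difference was 0.03. Without the same array the miR-223-3p difference was 0.27. The muscle miRNA miR-206-3p differed by 0.50 (SE 0.31) and also belongs to the GU-repeat set, and the endothelial miR-126a-3p by 0.06. In cartilage DMM replicate 1 miR-126a-3p was 7.24, against 5.36 to 6.37 on the other 5 cartilage arrays, and that array also had the highest miR-21a-5p, with no test of how the 2 are related. No smooth muscle or miR-200 family member was among the rows tested. Further markers were not tested because they lacked complete values in one tissue. The muscle miR-1a-3p, miR-133a-3p and miR-133b-3p were complete in cartilage only. The red-cell miR-144-3p, the leukocyte miR-142a-5p and miR-150-5p, and the endothelial miR-126a-5p were complete in bone only. Muscle and endothelium thus rest on 1 miRNA each.

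Among the mesenchymal miR-199 and miR-214 members, miR-214-5p alone had a positive difference. It had 5.76, 5.81 and 6.07 in cartilage DMM, against 5.41, 5.34 and 5.32 in cartilage SHAM. Signals were 5.78, 5.53, 5.61 and 5.61 in bone DMM, against 5.75, 5.72, 5.49 and 6.01 in bone SHAM. It rose 1.44-fold in cartilage (adjusted p = 0.0473) and its difference of 0.64 (SE 0.22) had an adjusted p of 0.176, and passed with array weights of either kind. The other 4 members had negative differences of -0.30 to -0.56, none passing, with miR-214-3p at -0.30. The osteoblast regulators miR-2861 and miR-3960 had 0.10 and 0.60, and both were negative with quantile normalization (-0.04 and -0.24). Without bone SHAM replicate 1 the miR-3960 difference was 0.05. The hypoxia-induced miR-210-3p had -0.38 (SE 0.41).

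Among families and clusters, the listed let-7 members had 8 negative differences of 9 and a median of -0.24, against 0.10 over all rows. Of these members 0 passed. That median was -0.03 without bone SHAM replicate 1, -0.49 without replicate 4 and -0.30 without both. let-7k, which has the same seed but was not listed, differed by 0.16, and the median of the 10 miRNAs with that seed was -0.21. The miR-30 family has Runx2 among its reported targets, and its list included the 3p arms miR-30a-3p and miR-30e-3p. This list had 0 positive differences of 7 (median -0.22), and its median was 0.04 without bone SHAM replicate 1 and -0.47 without replicate 4. 4 of 5 miR-181 family members, miR-181a-1-3p included, were negative, with a median of -0.54. The 8 members of the Myc-driven miR-17-92 clusters and their paralogs were positive, with a median of 0.26, but 3 of 8 turned negative with centring at the 75th percentile and 2 of 8 with quantile normalization. The 3 miR-29 members, which target collagen messenger RNAs, were also positive (median 0.23), and 1 of them turned negative under either other scaling. Without bone SHAM replicate 4 both medians were below 0, at -0.08 for the miR-17-92 group and -0.18 for the miR-29 family, and without replicate 1 they were 0.52 and 0.59. The 6 tested miRNAs of the Dlk1-Dio3 cluster had a median of 0.00, and 24 more of its members had complete values in cartilage only.

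**Figure D5:**
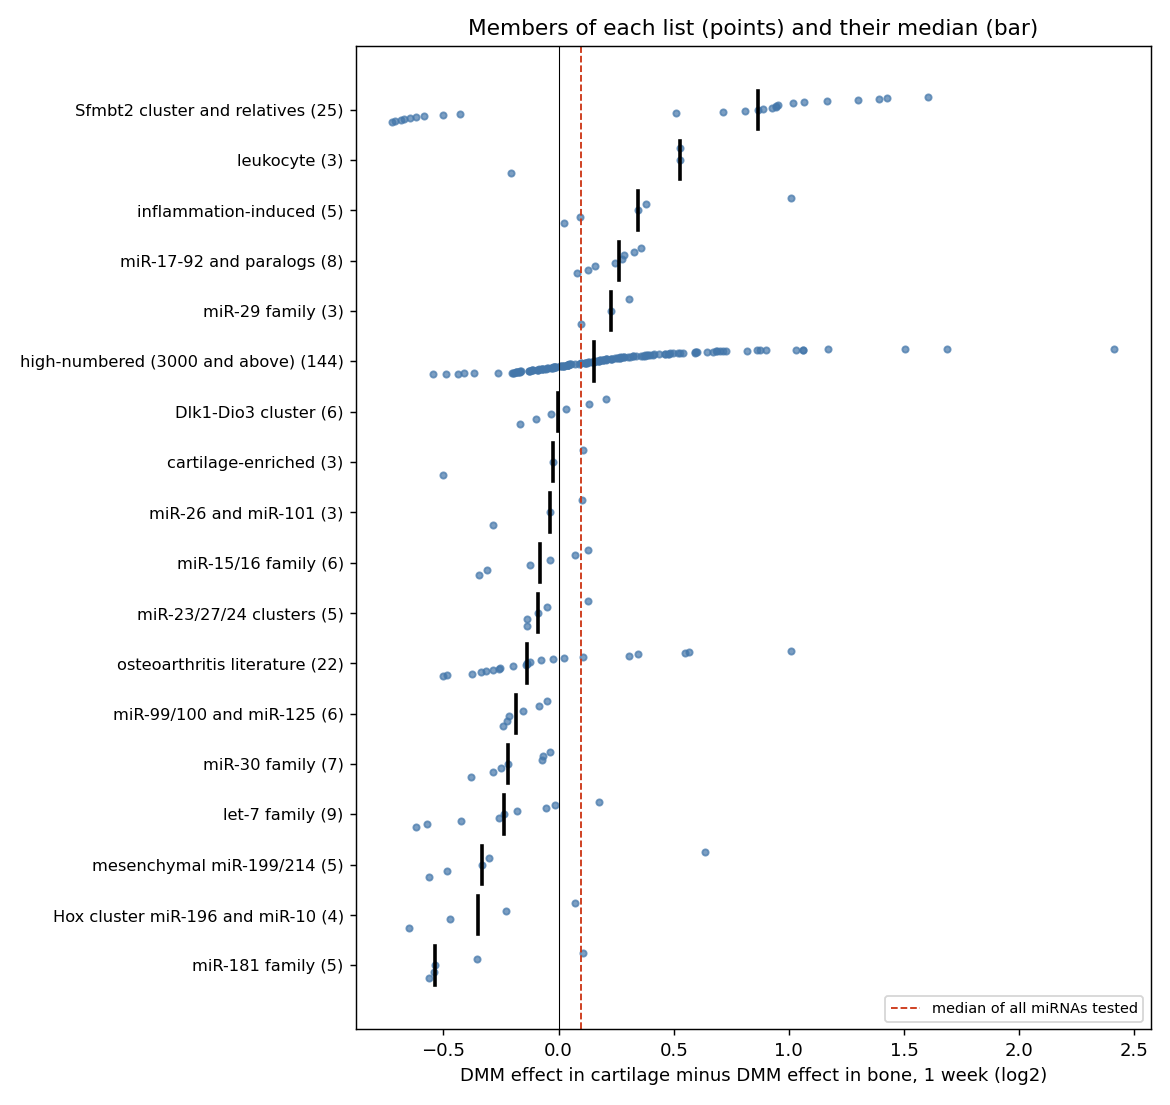
The 1-week difference, DMM effect in cartilage minus DMM effect in bone (x axis, log2), of each member (points) of the lists with at least 3 tested members (number in brackets), with bars at the list median and a dashed line at the median of all miRNAs tested, 0.10. The Sfmbt2 cluster and relatives fall into an upper group above 0.5 and a lower group below -0.4, and the miR-181, Hox and mesenchymal lists have the lowest medians.

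The 1-week difference was set against the same difference at 6 weeks, estimated from the other 14 arrays. Across the 359 rows the 2 differences correlated at r = 0.74, a description over rows. At 6 weeks 2 miRNAs passed (0.557%), miR-6931-5p with 1.70 (adjusted p = 0.000566) and miR-5099 with 1.77 (adjusted p = 5.2e-05), and 13 (3.62%) had an unadjusted p under 0.05. The change between weeks passed for 0 miRNAs by limma (0%), with 3 at an unadjusted p under 0.05. For miR-6931-5p the 1-week minus the 6-week difference was 0.71 (SE 0.40, unadjusted p = 0.0869 by limma).

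miR-5099 had the smallest p for a change between weeks. Its 1-week difference was 0.50 (SE 0.24), from 6.54, 6.49 and 6.35 in cartilage DMM, against 6.01, 5.80 and 6.33 in cartilage SHAM, and 6.20, 6.14, 6.23 and 6.10 in bone DMM, against 6.24, 6.14, 6.31 and 6.33 in bone SHAM. Cartilage DMM lay just above cartilage SHAM, and the bone groups shared their range. The 1-week minus the 6-week difference was -1.27 (SE 0.34, adjusted p = 0.383). miR-223-3p, of myeloid cells, changed by 1.67 between weeks (SE 0.70), with differences of 0.53 at 1 week and -1.14 at 6 weeks, and did not pass. The GU-repeat set kept a positive median at 6 weeks, 0.80, and the CA-repeat set a negative one, -0.54.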

How the data were processed

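RNA (70 ng a sample) was labelled and hybridized to Agilent SurePrint mouse miRNA arrays, release 21, per the labels' protocols. The authors deposited 1 table of values taken here as log2 signals from their range, 4.08 to 16.7. The submitters' processing notes name limma 3.20.9. No source used here gives the background correction, normalization or row filter. Of 569 rows, 438 were complete in cartilage, 490 in bone and 359 in both. Scanner backgrounds were not used here, so precision rests on the number of arrays. There were 0 unused columns of sample values.

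Values were used as deposited. A group-means model over the 8 groups of all 28 arrays was fitted with limma 3.58.1 in R 4.3.3 (jsonlite 2.0.0 read the labels), with empirical Bayes moderation and Benjamini-Hochberg adjustment over 359 rows, at a threshold of 0.05. Both tissues came from the same mice, per the labels, but pools are not tied to mice, so arrays were treated as independent. The fit was run on simulated data with noise independent between rows and arrays. Variation shared by rows, as on the bone component, was not simulated, so that run does not cover it. The text names the 12 largest differences past the threshold in each direction with a mean above the 25th percentile, filled up to 8 by smallest p, members of fixed lists, and for the change between weeks the 3 smallest p in a direction. The members and lists were chosen with earlier results of these data known. Tried as alternatives were array weights, weights per tissue, quantile normalization, centring at the 75th percentile, a filter on low rows, a robust prior with trend, 1-week arrays alone, each tissue apart, a replicate block, a covariate for the bone component, and leaving out each array. Leaving out bone SHAM replicates 1 and 4 together, and array weights estimated gene by gene, were added after seeing the data. Sequences came from RefSeq, GRCm38.p6.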

Additional observations from a re-analysis of the deposited data

Results flagged for a closer look

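miR-6931-5p was marked because its DMM effect differed between cartilage and bone at 1 week by the test of the difference itself, by 2.41 on the log2 scale. Single arrays stood off from the rest of their group in 3 cases among 104 groups of 4 bone arrays examined for the 52 miRNAs followed, by Dixon's test at its 95% critical value, and chance alone marks about 1 in 20. In bone DMM replicate 2 miR-155-5p was 5.55, below 5.89 to 5.94 on the other 3 arrays. In bone DMM replicate 1 miR-210-3p was 6.88, above 5.66 to 5.80 on the others. In the same array let-7d-5p was 10.73, above 10.19 to 10.27 on the others.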

How the results depend on the processing

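The count for the cartilage minus bone difference was 1 in the deposited values, 52 with array weights (40 higher, 12 lower), 24 with array weights estimated gene by gene (22 higher, 2 lower), 10 with the bone component as a covariate, and 1 in every other alternative, leaving out single arrays included. The default weights did not converge and ran from 0.109 for bone SHAM replicate 1 to 4.70, and the 2 ways of weighting differed by over 1.5 times. The cartilage count of 27 was 41 with quantile normalization (35 higher, 6 lower), 122 and 119 with array weights by default and gene by gene, 92 with weights per tissue, 50 with 1-week arrays alone, 95 with each tissue apart, 14 with low rows left out, where 180 rows were tested, and 39 with the covariate. The replicate block in cartilage gave 9. Same-numbered cartilage arrays deviated together at r = 0.05, -0.37 and -0.38 at 1 week, so the numbers were not taken to pair samples. Leaving out single arrays gave 1 to 34. The bone count of 0 was 76 with default array weights (37 higher, 39 lower) and 0 otherwise, gene-by-gene weights included. The count for the change between weeks was 0, 1 with quantile normalization (miR-5099, lower), and 0 to 1 with single arrays left out. The cause of these changes was not tested.
Signs of values that did not pass changed, relative to the deposited values, as follows. With default array weights the difference was miR-140-3p 0.33, miR-451a -0.72, miR-126a-3p -0.070, miR-214-3p 0.088, miR-3960 -0.020, miR-210-3p 0.057, let-7e-5p 0.41, let-7g-5p 0.00049 and miR-98-5p 0.040, and the bone effect was miR-466f-5p 0.24, miR-195a-3p 0.085, let-7b-5p -0.20 and let-7c-5p -0.23. With gene-by-gene weights the difference was miR-140-3p 0.24, miR-451a -0.12, miR-126a-3p -0.13 and let-7e-5p 0.13, and the bone effect was miR-466f-5p 0.19, miR-195a-3p 0.083 and let-7c-5p -0.044. With centring at the 75th percentile the difference was miR-140-5p -0.076, miR-146a-5p -0.16, miR-146b-5p -0.089, miR-126a-3p -0.12, miR-2861 -0.079 and let-7i-5p -0.0053, and the bone effect was miR-466f-5p 0.030 and miR-195a-3p 0.0016. With quantile normalization the difference was miR-140-3p 0.049, miR-146a-5p -0.11, miR-146b-5p -0.080, miR-451a -0.096, miR-126a-3p -0.19, miR-2861 -0.036, miR-3960 -0.24 and let-7i-5p -0.15, and the bone effect was miR-466f-5p 0.013 and miR-195a-3p 0.0095. With the covariate the difference was miR-140-3p 0.085, miR-2861 -0.0060, let-7e-5p 0.14, let-7g-5p 0.17 and miR-98-5p 0.075. Without bone SHAM replicates 1 and 4 the difference was miR-140-3p 0.069, miR-451a -0.053 and miR-126a-3p -0.088, and the bone effect was miR-466f-5p 0.15, miR-195a-3p 0.12, miR-6918-5p 0.11, miR-466f-3p -0.057, miR-669p-3p -0.040, miR-467f -0.035 and miR-466q -0.054. With single arrays left out the difference crossed 0 for miR-140-3p -0.15 to 0.17, let-7e-5p -0.23 to 0.20, let-7g-5p -0.28 to 0.19, miR-98-5p -0.63 to 0.087, miR-214-3p -0.50 to 0.012, miR-146a-5p -0.20 to 0.28, miR-451a -0.16 to 0.62, miR-486a-5p -0.44 to 0.070, miR-140-5p -0.28 to 0.47, miR-126a-3p -0.51 to 0.44, miR-146b-5p -0.31 to 0.50 and let-7i-5p -0.099 to 0.35. With single arrays left out the bone effect crossed 0 for miR-466f-5p -0.084 to 0.090, miR-195a-3p -0.11 to 0.019, let-7b-5p -0.038 to 0.31, let-7c-5p -0.11 to 0.23, miR-1187 -0.078 to 0.54, miR-3082-5p -0.077 to 0.56, miR-574-5p -0.040 to 0.57, miR-466f-3p -0.016 to 0.19, miR-467f -0.021 to 0.18 and miR-466q -0.012 to 0.16.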
